A study of Danio rerio with 8 samples.

Results

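Genes of DNA replication and mitosis were followed in sorted cartilage cells of zebrafish (Danio rerio) larvae. The set was chosen by symbol: 33 gene names, of which 8 form a replication core (pcna, mcm2 to mcm7 and gins2), 6 serve origin licensing, nucleotide supply and chromatin assembly in S phase, 2 encode E-type cyclins and 17 act in mitosis. All 33 were found in the deposited table. They account for 35 of its 32057 gene IDs, because rrm2 and ube2c stand there under 2 IDs each. A separate table of gene names gave the same symbol for 34 of the 35 IDs. The exception was ENSDARG00000101618, labelled ube2c in the deposited table and DNTTIP1 in the name table, and it is described apart below.

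The study sequenced RNA from 4 kat6a-deficient and 4 WT libraries, and its design text calls them biological replicates. All larvae carried the transgenes Tg(sox10:EGFP) and Tg(col2a1a:mcherry), were raised at 28.5 degrees Celsius with 0.003% PTU, which blocks pigment formation, and were sorted at 3 days post fertilisation for cells positive for both reporters. The sox10 promoter is active in neural crest and its derivatives, and that of col2a1a in cartilage. Kat6a is an enzyme that acetylates histones. Neither the kind of lesion nor the number of larvae per library is given in the sources used here. Whether same-numbered libraries share a clutch, a sort or a day is likewise not given.

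A cell that divides first licenses its replication origins by loading the Mcm2-7 helicase with Cdc6 and Cdt1, then copies its DNA behind that helicase with the help of the clamp Pcna, and then builds a spindle under the kinases Cdk1, Plk1 and the Auroras. Many of these genes are transcribed only in cycling cells, the replication genes from late G1 and the mitotic genes in G2. Chondrocytes divide while cartilage grows and leave the cycle as they mature. In RNA from a population, fewer cycling cells and less RNA per cycling cell cannot be told apart.

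Values are FPKM as deposited, that is, fragment counts scaled by the authors to transcript length and library size. Summed FPKM lay between 311061 and 339307 per library and 11010 (kat6a replicate 4) to 16108 genes stood above 0. Sequencing depth is unknown, and an exact 0 is read only as a listed value. Chondrocyte genes were high in every library: col2a1a, the collagen II gene, stood at 10783, 19601, 19200 and 17360 FPKM in kat6a replicates 1 to 4 and at 8994, 20538, 19811 and 17827 FPKM in WT replicates 1 to 4. The targeted gene kat6a itself had 28.2, 11.98, 12.4 and 9.09 FPKM in kat6a and 32.0, 15.2, 16.3 and 18.9 FPKM in WT (log2 fold change of -0.46 ± 0.36, SE; limma adjusted p = 0.958). It was lower in kat6a in 4 of 4 same-numbered pairs, as were 16.3% of all tested genes, and the groups overlapped over all 8 libraries. In the libraries numbered 2 to 4 they did not, with 9.09 to 12.4 FPKM in kat6a and 15.2 to 18.9 FPKM in WT (log2 fold change of -0.56 ± 0.19, limma adjusted p = 0.782). The share of all genes whose groups separate in those libraries was not counted. With the replicate block on all 8 libraries the unadjusted p was 0.0315 and the limma adjusted p 0.458.

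In both genotypes the library numbered 1 held several times more of these transcripts than the libraries numbered 2 to 4. Summed over all 35 IDs, FPKM was 505.9 in kat6a replicate 1 and 427.4 in WT replicate 1, against 42.1 to 82.5 in kat6a replicates 2 to 4 and 63.5 to 108.5 in WT replicates 2 to 4. That was 0.163% and 0.131% of all FPKM in the libraries numbered 1 and 0.0133% to 0.0339% in the other 6. That the libraries numbered 1 stand apart was known from earlier results of these data, and number 1 is a single number of 4, so the split is described without a test.

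**Figure D1:**
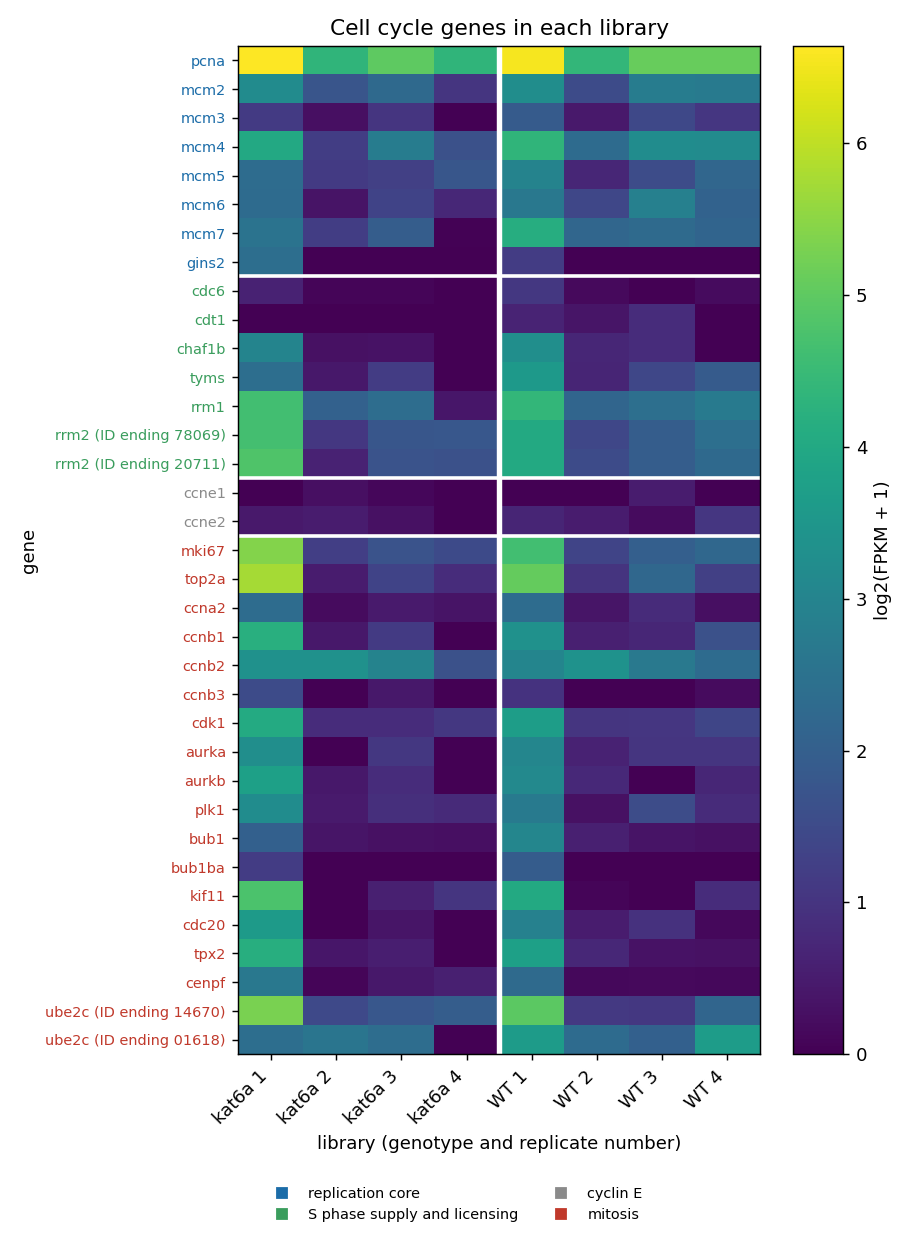
Level of each of the 35 gene IDs (rows, coloured by class) in each library (columns, kat6a on the left and WT on the right), as log2(FPKM + 1). The columns kat6a 1 and WT 1 are brighter than the other 6 in nearly all rows, the exceptions being mcm3, mcm6, cdt1, ccne1, ccne2, ccnb2 and the second ube2c ID.

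Among the replication core genes, pcna, the sliding clamp that holds DNA polymerases on the template, had the highest level. It stood at 98.8, 19.2, 30.6 and 19.4 FPKM in kat6a replicates 1 to 4 and at 93.2, 20.05, 32.97 and 33.1 FPKM in WT replicates 1 to 4. The libraries numbered 1 lay 4.28-fold above the mean of the other 3 in kat6a and 3.24-fold in WT, and the 2 genotypes overlapped.

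The helicase genes mcm2 to mcm7, whose products form one ring of 6 different subunits, were present at lower levels. The subunit gene mcm4 had 14.96, 1.32, 5.93 and 2.14 FPKM in kat6a and 19.2, 3.96, 8.38 and 8.25 FPKM in WT. For mcm2 the values were 8.14, 2.39, 3.79 and 1.04 FPKM in kat6a and 8.57, 1.87, 5.95 and 5.63 FPKM in WT. Both were highest in the libraries numbered 1. The gene mcm7 stood at 4.77, 1.33, 2.89 and 0.0222 FPKM in kat6a and at 16.7, 3.60, 3.93 and 3.42 FPKM in WT, so that its WT replicate 1 exceeded every other library at least 3-fold. FPKM of mcm5 was 4.10, 1.17, 1.41 and 2.45 in kat6a and 6.78, 0.629, 1.93 and 3.61 in WT. The 2 helicase genes in which the libraries numbered 1 did not both exceed the rest were mcm6 and mcm3. For mcm6 FPKM was 4.001, 0.277, 1.505 and 0.671 in kat6a and 5.33, 1.64, 6.42 and 3.23 in WT, with WT replicate 3 the highest. For mcm3 it was 1.18, 0.212, 1.04 and 0 in kat6a and 2.75, 0.371, 1.73 and 1.08 in WT. Summed over the 6 genes, FPKM was 37.2 in kat6a replicate 1 and 59.3 in WT replicate 1, against 6.32 to 28.3 in the remaining libraries. The eighth core gene, gins2, encodes a subunit of the GINS complex that activates the helicase. It was listed at 4.27 FPKM in kat6a replicate 1, at 1.28 FPKM in WT replicate 1 and at 0 in each of the other 6.

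Of the S phase genes, those that supply nucleotides were also highest in the libraries numbered 1. The large subunit gene of ribonucleotide reductase, rrm1, had 23.7, 3.19, 4.15 and 0.332 FPKM in kat6a and 20.2, 3.48, 4.41 and 5.60 FPKM in WT. Its partner, the small subunit gene rrm2, stood at 24.0, 1.11, 2.44 and 2.49 FPKM in kat6a and 15.3, 1.64, 2.89 and 4.40 FPKM in WT under ENSDARG00000078069. Under ENSDARG00000020711 the values were 27.1, 0.549, 2.22 and 2.13 FPKM in kat6a and 15.3, 1.85, 2.87 and 3.82 FPKM in WT. The 2 rrm2 IDs were both highest in the libraries numbered 1. Whether they share reads was not tested, so the level of either alone is uncertain. Thymidylate synthase, tyms, which makes the DNA-specific nucleotide dTMP, was listed at 4.29, 0.352, 1.26 and 0 FPKM in kat6a and 10.8, 0.610, 1.68 and 2.73 FPKM in WT. The chromatin assembly factor subunit gene chaf1b was listed at 6.98, 0.224, 0.257 and 0 FPKM in kat6a and 8.68, 0.630, 0.800 and 0 FPKM in WT.

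The licensing factor genes were near the bottom of the range. FPKM of cdc6 was 0.563 in kat6a replicate 1 and 1.101 in WT replicate 1, against 0 to 0.151 in the remaining libraries. The gene cdt1 was listed at 0 in all 4 kat6a libraries, and at 0.577, 0.289, 0.805 and 0 FPKM in WT. The E-type cyclins, which with Cdk2 drive entry into S phase, did not follow the split. FPKM of ccne1 was 0, 0.209, 0.0762 and 0 in kat6a and 0, 0, 0.412 and 0 in WT, and FPKM of ccne2 was 0.362, 0.417, 0.236 and 0 in kat6a and 0.607, 0.422, 0.137 and 1.06 in WT. These 4 genes did not reach a mean of 0.5 FPKM over the 8 libraries, nor did ccnb3, and so were not tested between genotypes.

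Most mitosis genes were likewise highest in the libraries numbered 1. DNA topoisomerase II alpha, top2a, which untangles replicated chromosomes, stood at 53.1, 0.412, 1.53 and 0.785 FPKM in kat6a and at 32.9, 0.990, 3.63 and 1.40 FPKM in WT. The libraries numbered 1 thus lay 58.5-fold above the mean of the others in kat6a and 16.4-fold in WT. The proliferation marker mki67, whose product coats mitotic chromosomes, had 41.1, 1.35, 2.27 and 1.83 FPKM in kat6a and 24.0, 1.56, 3.02 and 3.69 FPKM in WT. The spindle motor gene kif11 was listed at 26.3, 0, 0.498 and 1.02 FPKM in kat6a and at 15.4, 0.0587, 0 and 0.800 FPKM in WT. The ubiquitin-conjugating enzyme gene ube2c, which works with the anaphase-promoting complex, had 38.3, 1.75, 2.50 and 2.91 FPKM in kat6a and 30.1, 1.14, 1.11 and 3.52 FPKM in WT under ENSDARG00000114670. In each of these 4 genes the 2 libraries numbered 1 did not overlap the other 6.

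Of the kinase and cyclins of mitotic entry, all but ccnb2 stood highest in the libraries numbered 1. FPKM of cdk1, the mitotic kinase, was 15.6 in kat6a replicate 1 and 11.9 in WT replicate 1, against 0.798 to 1.61 in the other 6. Its cyclin partner ccnb1 stood at 17.1 and 9.31 FPKM in those 2 libraries, against 0 to 2.14 FPKM in the other 6, and ccna2 at 4.12 and 4.09 FPKM against 0.137 to 0.747 FPKM. Values of ccnb3 were 1.88 and 0.947 FPKM against 0 to 0.345 FPKM. The B-type cyclin gene ccnb2 had 9.19, 9.21, 6.80 and 2.15 FPKM in kat6a and 7.10, 9.54, 5.48 and 3.996 FPKM in WT. Its highest library was WT replicate 2, and in the 6 libraries numbered 2 to 4 it ranked second of the 35 IDs by median FPKM, at 6.14, behind pcna at 25.3.

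The remaining mitosis genes stood low outside the libraries numbered 1. Among the mitotic kinases aurka had 8.78 FPKM in kat6a replicate 1 and 7.28 FPKM in WT replicate 1, aurkb 12.6 and 7.66 FPKM, and plk1 8.33 and 5.67 FPKM. The highest of the other 6 libraries reached 1.12 FPKM for aurka, 0.783 FPKM for aurkb and 1.90 FPKM for plk1. The spindle assembly factor gene tpx2 stood at 16.9 and 12.7 FPKM, the gene of the anaphase activator cdc20 at 11.3 and 6.62 FPKM, and the kinetochore gene cenpf at 5.27 and 3.89 FPKM. Each was under 1 FPKM in the other 6. The spindle checkpoint genes bub1 and bub1ba were the 2 mitosis genes, besides the ID discussed next, that were lower in kat6a replicate 1 than in WT replicate 1. FPKM of bub1 was 3.09 and 7.25 in the libraries numbered 1 against 0.198 to 0.512, and bub1ba was listed at 1.25 and 2.82 against 0 in all other 6.

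The second ID labelled ube2c, ENSDARG00000101618, did not share this pattern. Its FPKM was 4.30, 4.95, 4.14 and 0 in kat6a and 11.5, 4.04, 3.12 and 11.8 in WT, with its highest value in WT replicate 4. It differs from the other ube2c ID in both level and order of libraries, and the name table gives it another symbol, so its values are not read here as ube2c. By the rule of the set it still counts in the sums, counts and medians of the mitosis class, except where its exclusion is stated.

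**Figure D2:**
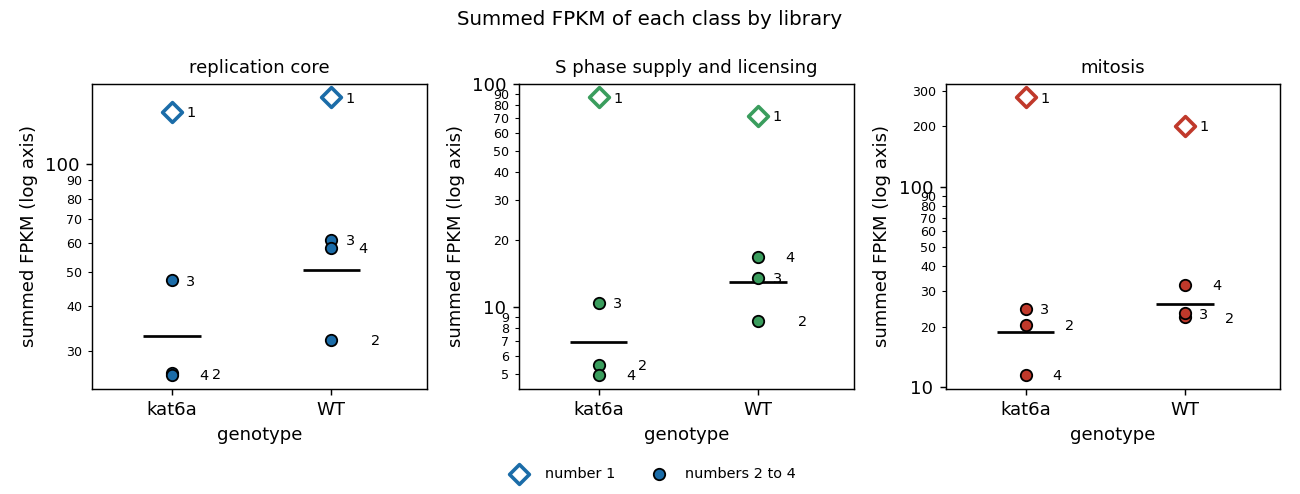
Summed FPKM of the replication core, the S phase genes and the mitosis genes (log axis) in kat6a and WT libraries; each point is a library with its replicate number, open diamonds are the libraries numbered 1, and bars are the means of numbers 2 to 4. The diamonds lie above all other libraries in each panel (in the mitosis panel 278.6 and 201.0 against 11.5 to 32.4 FPKM).

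The gap is given for each class, with no test between classes. The replication core summed to 140.2 FPKM in kat6a replicate 1 and 153.8 FPKM in WT replicate 1, which was 4.26-fold and 3.04-fold the mean of the other 3 libraries of the genotype. The S phase IDs summed to 86.7 and 72.0 FPKM, or 12.5-fold and 5.56-fold. The mitosis IDs summed to 278.6 and 201.0 FPKM, or 14.8-fold and 7.73-fold. Without ccnb2 and the second ube2c ID, an exclusion chosen after their values were seen, the mitosis sum was 265.1 and 182.4 FPKM against 6.21 to 16.6 FPKM in the other 6. The ratio of the mitosis sum to the replication sum was 1.99 in kat6a replicate 1 and 1.31 in WT replicate 1, against 0.380 to 0.786 in the remaining libraries. The replication sum rested mostly on pcna in the libraries numbered 2 to 4. Without pcna and gins2, the sum of mcm2 to mcm7 was below the mitosis sum in 5 of those 6 libraries. That order reversed when ccnb2 and the second ube2c ID were left out of the mitosis sum. The sum of mcm2 to mcm7 was then the higher one in 5 of the 6. The exception was kat6a replicate 4, at 6.32 FPKM against 9.35 FPKM.

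Across the 35 IDs, both libraries numbered 1 lay above all 6 others in 28 and below all 6 in none. The libraries numbered 1 stood apart in many other genes too: 28.5% of the 11763 tested genes lay above in both and 6.21% below in both. Because a gene can pass the test's filter on low values through the libraries numbered 1 alone, the count was repeated for genes with a mean of at least 0.5 FPKM over the other 6. Then 16 of the 20 IDs that passed lay above, beside a background of 26.4%. The 20 comprised 7 of the replication core, of which 5 lay above, 4 of the S phase genes, all of them above, and 9 mitosis IDs, of which 7 lay above.

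On the scale of log2(FPKM + 1), the difference of library 1 from the mean of libraries 2 to 4, averaged over the genotypes, had a median of 1.46 in the replication core, 2.59 in the 5 tested S phase IDs and 2.84 in the 17 tested mitosis IDs. Over all tested genes the median was 0.28 and the 95th percentile 1.61. The difference was largest for top2a, at 4.23, and smallest for ccnb2, at 0.45. With the filter on the other 6 libraries the medians were 1.22 for the replication core, 2.54 for the S phase IDs and 2.84 for the mitosis IDs, against 0.23 for all genes.

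**Figure D3:**
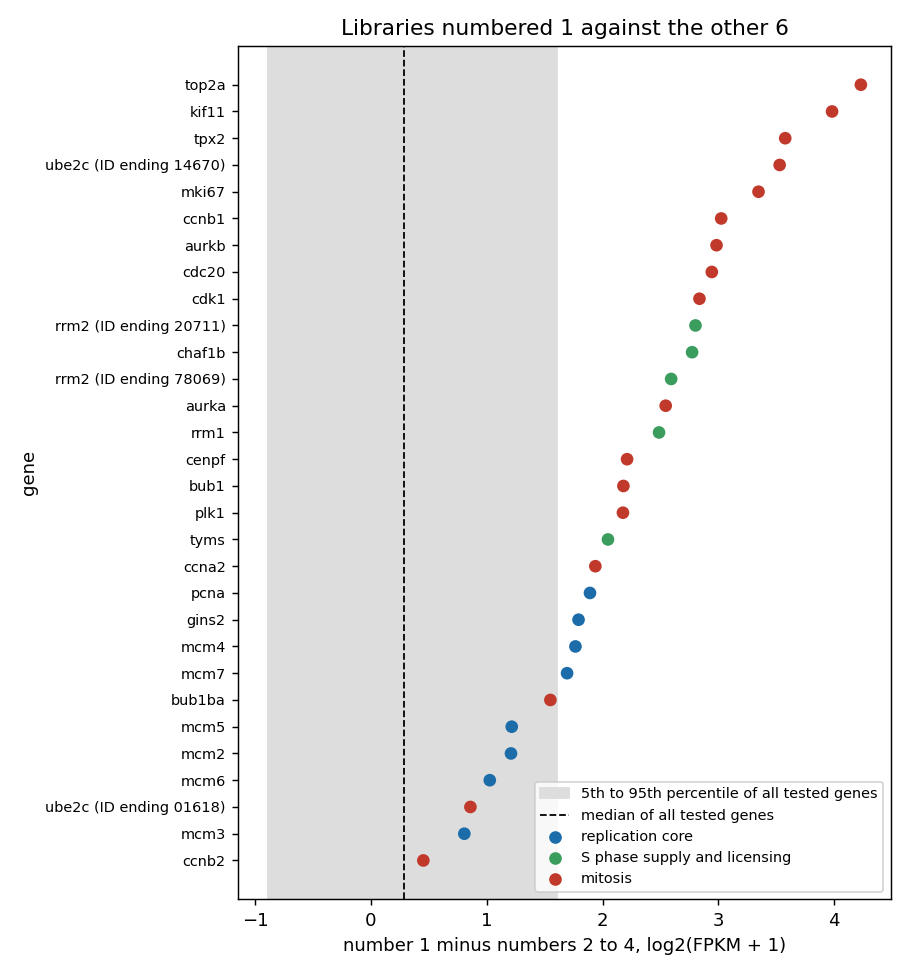
Difference between the libraries numbered 1 and the libraries numbered 2 to 4 for the 30 tested gene IDs, in log2(FPKM + 1), averaged over kat6a and WT. The grey band spans the 5th to the 95th percentile of all tested genes (-0.89 to 1.61), and 14 mitosis IDs, 5 S phase IDs and 4 replication core genes lie to its right. Among the IDs that pass the filter on the other 6 libraries, 7 of 9 mitosis IDs, 4 of 4 S phase IDs and 3 of 7 core genes lie above the 95th percentile of the genes passing that filter (1.45).

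Genes of the same pathways outside the set were read from lists of their own. Of the 53 tested genes in the list drawn up for spindle, kinetochore, condensin and cytokinesis, both libraries numbered 1 lay above the rest in 50. That held in 18 of the 19 that passed the filter on the other 6 libraries. The shares of all genes were 28.5% and 26.4%. The most abundant were hmgb2a and hmgb2b, chromatin proteins of the HMGB family. FPKM of hmgb2a was 175 and 143 in kat6a and WT replicate 1 against 22.9 to 79.2 in the other 6, and FPKM of hmgb2b was 120.5 and 119.6 against 28.7 to 55.5. Of the 33 tested replication fork and origin genes 16 lay above, or 12 of 27 with that filter, among them rpa1, a subunit gene of the single-strand binding protein, at 32.3 and 24.8 FPKM against 3.00 to 13.4 FPKM. Of the 31 tested regulators of cell cycle entry 13 lay above with either filter. Their most abundant members, the Myc family gene mycb at 215 to 291 FPKM and the cyclin G gene ccng1 at 96.1 to 171 FPKM over all 8 libraries, were not both higher in the libraries numbered 1.

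Other transcripts moved with the libraries numbered 1. The 11 chondrocyte markers summed to 40256 FPKM in kat6a replicate 1 and 32922 FPKM in WT replicate 1, against 61156 to 70073 FPKM in the remaining libraries. Within that list col2a1a, col9a1a, col9a2, col11a2 and matn1 were lower in both libraries numbered 1 than in the rest, and acana, hapln1a and sox10 higher; no chondrocyte marker was at 0 in any library. The targeted gene kat6a was also higher in them. Among marker lists of other cell types, 1 member of each of 4 lists lay above in both libraries numbered 1: tp63 of 8 epidermal markers, mpz of 7 Schwann cell and pigment cell markers, fli1a of 4 endothelial markers and col1a1a of 5 tendon and perichondrium markers, while postnb of that last list lay below in both. Over all tested genes 28.5% lay above in both and 6.21% below in both. Whether the 4 markers above reflect cells of another type was not tested. FPKM of mpz was 2.79 and 2.23 in kat6a and WT replicate 1, and it was listed at 0 in the other 6. The endothelial list summed to 32.4 and 39.3 FPKM against 17.1 to 31.0 FPKM, and fli1a alone made up 32.4 and 39.2 FPKM of it. The tendon list summed to 70.2 and 102 FPKM against 44.7 to 80.3 FPKM, with 60.4 and 91.5 FPKM from col1a1a. The Schwann and pigment list summed to 3.60 and 2.79 FPKM against 0 to 1.32 FPKM, most of it mpz. Sums of the erythroid, muscle, epidermal, liver with pancreas and leukocyte lists in the libraries numbered 1 lay within or below the range of the other 6. Those of the lens, neuron and neural progenitor lists lay below that range in kat6a replicate 1, and the neuron list lay above it in WT replicate 1, at 2.29 FPKM against 0.537 to 1.89 FPKM. In all 8 libraries 6 of 8 leukocyte markers, ptprc among them, were at 0, and so were 4 of the erythroid markers (gata1a, slc4a1a, klf1 and epb41b), sncb of the neuron list, neurog1 of the progenitor list and dct of the pigment list. The part of these transcripts in the cell cycle values was not tested.

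Between the genotypes no cell cycle gene passed the test. Limma, with p adjusted over all 11763 tested genes, called 0 of the 30 tested IDs, and the smallest adjusted p among them was 0.958. The background is low too: 0.017% of all tested genes were called lower and 0.0% higher. At an unadjusted p under 0.05 there was 1 of the 30, mcm6, which stood lower in kat6a, beside 3.92% of all tested genes lower and 0.646% higher. In none of the 35 IDs were the 4 kat6a libraries all above or all below the 4 WT libraries, beside 2.57% of tested genes below and 0.561% above. The authors' deposited table gave no cell cycle ID a q under 0.05. Its smallest p among them was 0.06318, for ccnb3, and ube2c under ENSDARG00000114670 had 0.06321. The gene ccnb3, not tested here, had a mean of 0.557 FPKM in kat6a and 0.274 FPKM in WT. The authors' fold change, read as WT over kat6a, did not always share the direction of the limma values below. It was 0.524 for top2a, 0.534 for mki67, 0.756 for pcna and 0.859 for rrm1, that is, higher in kat6a. It was 1.64 for both mcm6 and mcm7, lower in kat6a as with limma. Why the directions differ was not tested.

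Log2 fold changes of the 6 helicase genes were all below 0, without reaching the threshold. In units of log2(FPKM + 1), kat6a minus WT was -1.26 ± 0.60 (SE, n = 4 each) for mcm7 and -1.07 ± 0.48 for mcm6, with limma unadjusted p of 0.0617 and 0.0481 and adjusted p = 0.958 for both. It was -0.86 ± 0.61 for mcm4, -0.61 ± 0.40 for mcm3, -0.52 ± 0.50 for mcm2 and -0.22 ± 0.49 for mcm5. In mcm3, mcm4, mcm6 and mcm7 the kat6a library was the lower one in 4 of 4 same-numbered pairs, which 16.3% of all tested genes were as well. In mcm2 and mcm5 the exception was the pair numbered 2. The clamp gene pcna had -0.21 ± 0.57 and gins2 0.30 ± 0.56. Summed over mcm2 to mcm7, FPKM was 16.7 ± 14.5 in kat6a and 31.2 ± 20.0 in WT (SD, n = 4), and in the libraries numbered 2 to 4 it was 9.86 ± 5.81 and 21.9 ± 8.63 (SD, n = 3).

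**Figure D4:**
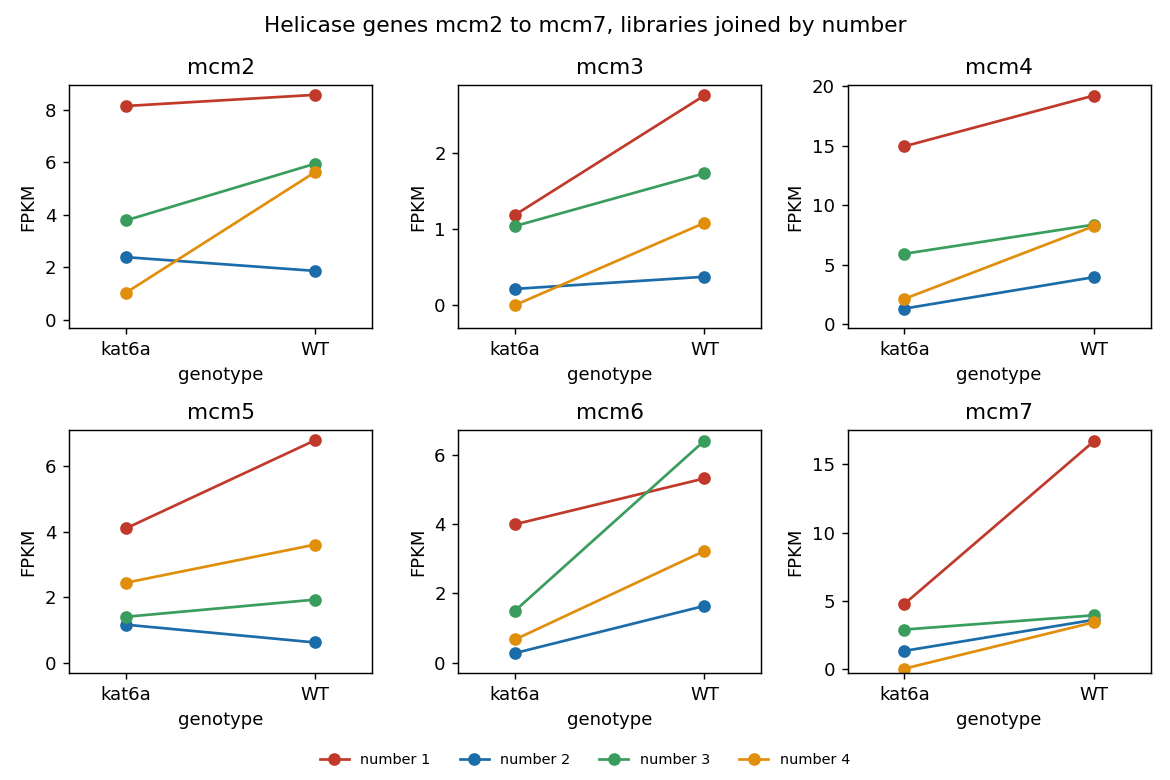
FPKM of the 6 helicase genes in kat6a (left) and WT (right) libraries, with same-numbered libraries joined by a line; each panel has its own axis. The lines rise toward WT in all 4 pairs for mcm3, mcm4, mcm6 and mcm7, and the pair numbered 2 runs the other way for mcm2 and mcm5.

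Same-numbered libraries deviated together across genes in all 4 pairs, so the fit was repeated with the number as a block. The deviations were taken from group means, so the shift shared by the libraries numbered 1 by itself raises the other correlations. Pairing of numbers 2 to 4 was therefore not shown. With the block the count of IDs at an unadjusted p under 0.05 was 4, all lower in kat6a (mcm4, mcm6, mcm7 and tyms), beside 8.31% of all tested genes lower and 2.09% higher. None was called, with a smallest limma adjusted p of 0.451 among the cell cycle IDs, beside 0.0085% of all tested genes called lower and 0.0% higher. Without the pair numbered 1 the IDs at an unadjusted p under 0.05 were mcm4, mcm6 and mcm7, or 3 of the 20 that still passed the filter, beside 4.43% of tested genes lower and 1.6% higher. The log2 fold change of mcm6 was then -1.32 ± 0.44 (n = 3 each), with a limma adjusted p of 0.782.

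The 5 tested S phase IDs all had values below 0, and none passed the test. The log2 fold change was -0.89 ± 0.66 for tyms, -0.56 ± 0.80 for rrm1 and -0.30 ± 0.81 for chaf1b. It was -0.13 ± 0.78 for rrm2 under ENSDARG00000078069 and -0.25 ± 0.85 under ENSDARG00000020711. Of the 13 tested replication and S phase IDs 12 had a log2 fold change below 0, and so had 69.5% of all tested genes. The 12 include both rrm2 IDs, which may share reads, and chaf1b, which passed the filter only through the libraries numbered 1. So did gins2, the exception among the 13, at 0.30.

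With all 8 libraries the mitosis genes lay on both sides of 0 between the genotypes. Their log2 fold changes ran from -1.09 for the second ube2c ID to 0.35 ± 1.13 for kif11, with 12 of the 17 tested IDs below 0. Of the 17, only 9 passed the filter without the pair numbered 1. The rest, kif11 among them, entered this count and range through the libraries numbered 1 alone. Without the second ube2c ID, which the name table gives another symbol, the lowest value was -0.33 ± 0.77 for aurka. Errors without the replicate block were large, for example -0.28 ± 1.21 for top2a and -0.10 ± 0.96 for mki67. With the block the same 2 estimates had an SE of 0.29 and 0.27. Without the pair numbered 1, and with no block, the values were -0.60 ± 0.40 and -0.38 ± 0.32. In that fit 8 of the 9 tested mitosis IDs were below 0, with a median of -0.38, beside 64.5% of all tested genes below 0 and an all-gene median of -0.13. Leaving out a single library moved the mitosis median to -0.81 (without kat6a replicate 1) or 0.51 (without WT replicate 1). In the pair numbered 1 alone, kat6a exceeded WT in 15 of the 18 mitosis IDs, while 32.2% of all tested genes were higher in kat6a in that pair. In the pairs numbered 2, 3 and 4 it exceeded WT in 3, 10 and 3 of the 18, beside 41.1%, 50.5% and 30.8% of tested genes. In the replication core kat6a exceeded WT in 2, 2, 0 and 0 of the 8 genes in pairs 1 to 4. It stood lower in 6, 5, 7 and 7 core genes and in 3, 13, 7 and 14 mitosis IDs. The remaining IDs were listed at 0 in both libraries of the pair. The pair numbered 1 is a single pair, so its difference from the others was not tested.

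**Figure D5:**
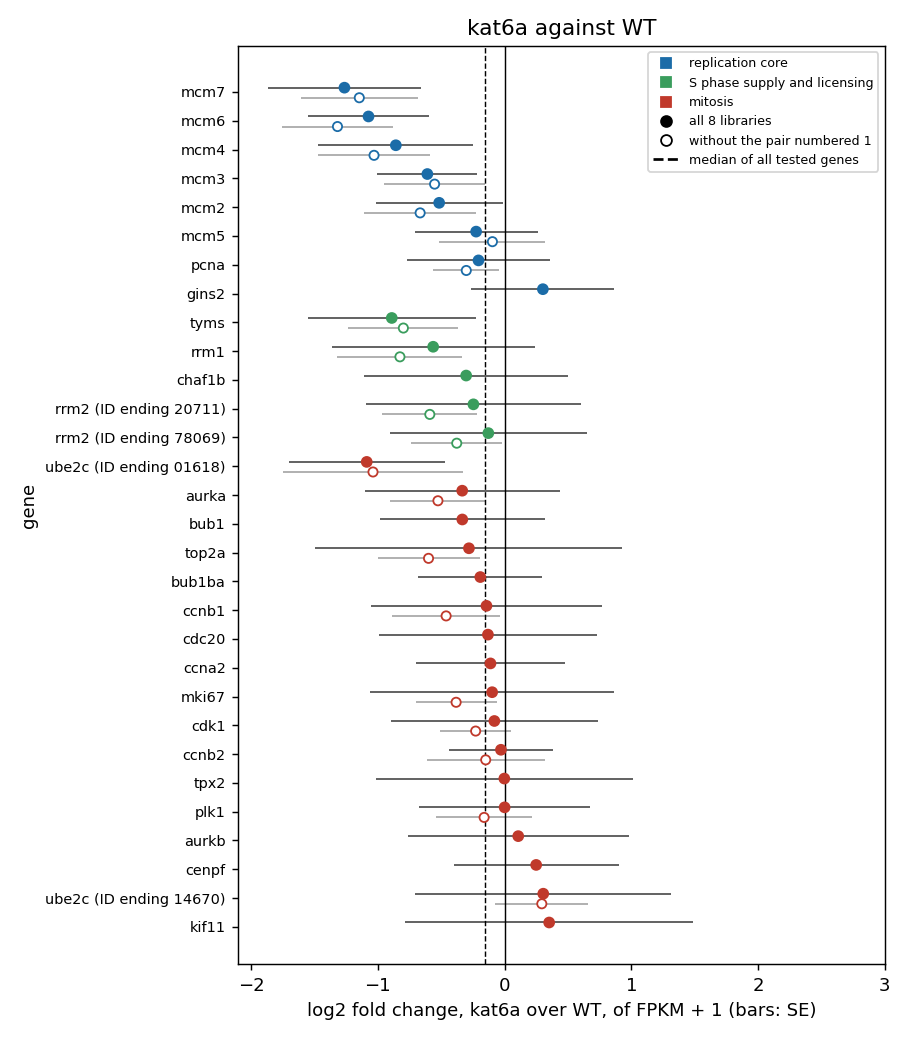
Difference between kat6a and WT in log2(FPKM + 1) for the 30 tested IDs, with SE as bars; filled points use all 8 libraries and open points leave out the pair numbered 1. The 6 helicase genes lie below 0 in both fits. With all 8 libraries the mitosis IDs lie on both sides of the median of all genes (-0.16, dashed), from -1.09 (the second ube2c ID) to 0.35. The next lowest mitosis ID is aurka, at -0.33. IDs without an open point passed the filter only through the libraries numbered 1.

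The median log2 fold change was -0.56 over the replication core and -0.10 over the 17 mitosis IDs, beside -0.16 over all tested genes. Without the pair numbered 1, only 7 of the 8 core genes and 9 of the 17 mitosis IDs passed the filter. The all-gene median depends on the scaling, so the classes are also given relative to it: the replication core stood at -0.41 from it as deposited, -0.44 with median-ratio scaling, -0.34 with quantile normalisation and -0.45 with upper-quartile scaling. The mitosis IDs stood 0.06 above it as deposited and between 0.06 and 0.08 above with the 3 scalings. With 1 library left out, however, the mitosis IDs stood between -0.59 (without kat6a replicate 1) and 0.57 (without WT replicate 1) from the all-gene median, and the replication core between -0.67 (without kat6a replicate 1) and -0.25 (without kat6a replicate 4). The kat6a library numbered 4 had the fewest genes above 0 and listed 16 of the 35 IDs at 0, against 1 to 7 in the other 7 libraries. Without it the median of the replication core was -0.34. Summed lens markers were 0.438 to 11.1 FPKM in kat6a and 41.1 to 127 FPKM in WT, and summed liver and pancreas markers 1.41 to 30.6 FPKM in kat6a and 34.7 to 118 FPKM in WT. Summed leukocyte markers were 4.25 to 6.09 FPKM in kat6a and 2.19 to 3.46 FPKM in WT. That sum was laptm5 alone, apart from spi1b at 0.184 FPKM in kat6a replicate 3. The other 6 leukocyte markers were at 0 in every library. The part of the lens, liver and pancreas, and leukocyte markers in the cell cycle values was not tested.

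In the wider lists, too, no gene passed the test between the genotypes. None of the 33 replication fork and origin genes, 53 mitosis genes or 31 regulators of cell cycle entry was called by limma, and at an unadjusted p under 0.05 there were 2, 0 and 1, all lower in kat6a. With the replicate block these were 3, 3 and 2, of which 0, 2 and 1 stood higher in kat6a, and again none was called. Over all tested genes 3.92% stood lower and 0.646% higher at that p without the block, and 8.31% lower and 2.09% higher with it. The single-strand binding protein gene rpa2 was listed at 0, 0.820, 1.52 and 0 FPKM in kat6a and at 5.92, 2.45, 5.91 and 2.73 FPKM in WT, with a log2 fold change of -1.77 ± 0.41 and a limma adjusted p of 0.747. It was the lower one in kat6a in 4 of 4 pairs, and in the libraries numbered 1 it was highest of all in WT and listed at 0 in kat6a. The ribonuclease H2 subunit gene rnaseh2a had -0.90 ± 0.37. Among the entry regulators the smallest p values belonged to the E2F partner genes tfdp1a, at -0.87 ± 0.33, and tfdp1b, at -0.69 ± 0.31. The smallest in the wider mitosis list were those of cdca7a, at -0.91 ± 0.52, and cdca7b, at -0.63 ± 0.49. Values of cdca7a were listed at 0 in 5 libraries and reached 4.63 FPKM in WT replicate 1. The median log2 fold changes were -0.39 for the replication list, -0.02 for the mitosis list and -0.20 for the entry regulators.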

How the data were processed

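RNA from 8 libraries (4 kat6a, 4 WT) was measured. The authors deposited FPKM per gene ID, made with HISAT2 and StringTie on GRCz10 per the submitters' processing notes, with no version or setting given. Per the column headers, the authors also deposited their own test of each gene as a fold change with its p-value and q-value. The fold change is a ratio, read here as WT over kat6a, and no test here rests on it. Columns of values tied to no sample numbered 0. Depth is unknown, so no counting interval was computed.

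Genotypes were compared with limma 3.58.1 in R 4.3.3 (intensity trend, two-sided) on log2(FPKM + 1) for genes with a mean of at least 0.5 FPKM over the 8 libraries, with Benjamini-Hochberg adjustment and a threshold of 0.05. Fold changes on this scale understate the change of low genes. The test was checked on simulated data by the median ratio of recovered to set change. That summary was taken up after the mean ratio had missed its tolerance. No result of that check is given for the cell cycle IDs, so it does not show how the fit behaves for them. Same-numbered libraries correlated in their deviations from the group means (r = 0.589, 0.347, 0.127 and 0.151 for numbers 1 to 4). The number was therefore also fitted as a block. The shift shared by the libraries numbered 1 by itself raises the other correlations, so pairing of the other numbers was not shown. Nothing in the labels names animals, so p-values measure the spread between these libraries. Alternatives were another pseudocount, filter, scaling or weighting, the replicate block and left-out libraries. Upper-quartile scaling used genes above 0 in any library, a definition set after a first run with each library's own genes above 0.

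The genes, lists and tests were chosen with earlier results of these data known. Named are all genes of the set, kat6a, 2 chondrocyte genes, the top-ranked genes of the wider lists by level and by p, and markers that moved with the libraries numbered 1; the last were chosen after their values were seen. Promoter sequences were not analysed here.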

Additional observations from a re-analysis of the deposited data

Results flagged for a closer look

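Within each genotype, a library was set apart where its gap to the next one took up nearly the whole range of the 4 values on the log2(FPKM + 1) scale (above Dixon's 95% critical value for groups of 4). This held 23 times in 70 groups of 4; chance marks about 1 in 20 groups, and the groups share libraries. Among the tested IDs it held in 35.0% of groups, with number 1 the highest in 33.3%, beside 10.1% and 4.85% of the groups of all tested genes. Several of these members, such as gins2 and bub1ba, are listed at 0 in the other libraries and pass the filter on low values only through number 1, so the shares support nothing. In 21 of the 23 the library was number 1 and the highest. It was kat6a replicate 1 for gins2 (4.27 FPKM), cdc6 (0.563), chaf1b (6.98), mki67 (41.1), top2a (53.1), ccna2 (4.12), cdk1 (15.6), plk1 (8.33), bub1 (3.09), bub1ba (1.25), cdc20 (11.3), tpx2 (16.9) and ube2c under ENSDARG00000114670 (38.3). It was WT replicate 1 for mcm7 (16.7 FPKM), gins2 (1.28), cdk1 (11.9), aurka (7.28), bub1 (7.25), bub1ba (2.82), tpx2 (12.7) and cenpf (3.89). In 5 genes both libraries numbered 1 were set apart. The other 2 were WT replicate 3 for ccne1, at 0.412 FPKM with the other WT libraries listed at 0, and kat6a replicate 4 for ENSDARG00000101618, listed at 0.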

How the results depend on the processing

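No cell cycle ID and no gene of the wider lists was called in any of the 19 alternatives, where the smallest adjusted p of a cell cycle ID was 0.446. Over all genes the count called was 2 as reported, 1 with a pseudocount of 0.1 or the replicate block, 0 without a filter, with median-ratio, quantile or upper-quartile scaling or with the block and median-ratio scaling, 14 with array weights, 4 without the pair numbered 1, 1 without that pair and with the block (an alternative chosen after seeing the data), and 0 to 5 with 1 library left out. Leaving out 1 library moved the mitosis median between -0.81 (without kat6a replicate 1) and 0.51 (without WT replicate 1), and the replication median between -0.89 and -0.33. The mitosis difference of the libraries numbered 1 was 4.09 with a pseudocount of 0.1, 2.51 with median-ratio, 2.46 with upper-quartile and 2.48 with quantile scaling, 2.69 without a filter, and 2.398 to 3.13 with 1 library left out. Of the 30 tested IDs 7 kept their sign in all 19 alternatives (mcm2, mcm3, mcm4, mcm6, mcm7, tyms and the second ube2c ID). Gins2 kept its sign where it had a value, but did not pass the filter at 1 FPKM, without kat6a replicate 1 or without the pair numbered 1. Signs of log2 fold changes turned for the other 22; the cause was not tested. With upper-quartile scaling pcna had 0.0077, rrm2 (ENSDARG00000078069) 0.041, mki67 0.069, ccnb2 0.15, cdk1 0.066 and tpx2 0.078. With quantile normalisation mcm5 had 0.0057, the same rrm2 ID 0.033, mki67 0.069, ccna2 0.17, ccnb1 0.055, ccnb2 0.16, cdk1 0.098, bub1ba 0.011, cdc20 0.0093 and tpx2 0.14. With median-ratio scaling, blocked or not, mki67 had 0.026, ccnb2 0.099, cdk1 0.029 and tpx2 0.067. Array weights gave ccnb2 0.11, plk1 -0.17 and tpx2 0.046, and plk1 had -0.16 without the pair numbered 1, blocked or not. With 1 library left out, values ran from -0.73 to 0.22 for pcna, -0.61 to 0.14 for mcm5, -1.0002 to 0.39 for chaf1b, -1.32 to 0.088 for rrm1, -0.90 to 0.40 for rrm2 ENSDARG00000078069, -1.12 to 0.28 for rrm2 ENSDARG00000020711, -1.08 to 0.60 for mki67, -1.50 to 0.62 for top2a, -0.62 to 0.35 for ccna2, -1.06 to 0.45 for ccnb1, -0.21 to 0.36 for ccnb2, -0.86 to 0.56 for cdk1, -1.07 to 0.21 for aurka, -0.73 to 0.76 for aurkb, -0.62 to 0.46 for plk1, -0.77 to 0.33 for bub1, -0.71 to 1.28 for kif11, -1.003 to 0.47 for cdc20, -0.96 to 0.83 for tpx2, -0.32 to 0.78 for cenpf and -0.58 to 1.18 for ube2c ENSDARG00000114670.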
